A study of Mus musculus with 15 samples.

Results

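The 10 lysosomal cathepsin genes Ctsb, Ctsc, Ctsd, Ctse, Ctsf, Ctsh, Ctsl, Ctso, Ctss and Ctsz, picked by symbol from the deposited gene table of 16886 genes, were followed through RNA sequencing of mouse bone macrophages. Cathepsins are proteases that are made as inactive precursors, carried to endosomes and lysosomes by mannose 6-phosphate receptors and sortilin, and activated there at low pH by cleavage. In macrophages they break down proteins taken up from outside, trim antigens and the invariant chain for presentation on MHC class II, and, when secreted, digest extracellular matrix. Ctsb, Ctsc, Ctsf, Ctsh, Ctsl, Ctso, Ctss and Ctsz are cysteine proteases of the papain family, while Ctsd and Ctse are aspartic proteases.

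The macrophages had been grown in vitro for 14 days in medium holding M-CSF at 20 ng/ml, a growth factor on which macrophages depend. Each of 3 groups gave 5 libraries: VLDLR_KO (VLDLR knockout, lacking a lipoprotein receptor), ROBO4_KO (ROBO4 knockout, lacking a guidance receptor) and WT (wild type). All were of the strain C57BL6J, no label limits either knockout to a cell type, and the labels used here do not state the ages of the mice. No label says that replicates were separate mice or cultures, so every p-value reflects just the spread among these libraries, which may be technical.

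Library totals were 18132866 to 19005966 estimated counts. Sample codes had a digit before the letter B (2 VLDLR_KO, 2 ROBO4_KO and 3 WT libraries) or after it (3 VLDLR_KO, 3 ROBO4_KO and 2 WT libraries), and the labels do not say what this form stands for. It separated the libraries on the first principal component (35.2% of the variance), and VLDLR_KO stood apart on the second (29.1%). The form was therefore a term in the genotype comparisons over both forms, except the permutation test of Ctse and where its absence is stated. Vldlr had 1 to 9 counts in VLDLR_KO, 2 to 38 in ROBO4_KO and 5 to 36 in WT, and Robo4 had 0 counts in ROBO4_KO, 0 to 1 in VLDLR_KO and 0 to 4 in WT, so the targeted genes check the labels only weakly. All 8 listed macrophage markers were measured (summed level 10514 to 33662 CPM, counts scaled to a common library total), against at most 10.7 CPM for the neutrophil list and 2.45 to 186 CPM for the fibroblast and stroma list. The 2 WT libraries with the digit after B also had the highest summed level of immediate-early genes (1878 and 2086 CPM, against 336 to 835 CPM in the other 13).

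Together the 10 genes took 5.18 ± 0.448% of all counts in VLDLR_KO, 4.90 ± 0.363% in ROBO4_KO and 4.93 ± 0.298% in WT (SD, n = 5 each). Levels are compared between genes as FPKM, the authors' value per transcript length. Ctsd, the main aspartic protease of the lysosome, averaged 12061 FPKM over the 15 libraries and Ctsb, a cysteine protease that can also remove dipeptides from the C-terminal end, 10481 FPKM, ranking 4 and 5 among all genes. Ctss, the protease that stays active at neutral pH and finishes invariant chain cleavage, averaged 3216 FPKM (rank 12), Ctsl, a broad endopeptidase, 1344 FPKM (rank 41) and Ctsz, a carboxypeptidase, 1089 FPKM (rank 63).

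The other cysteine cathepsins were far less abundant. Ctsh, an aminopeptidase, averaged 138 FPKM (rank 538), Ctsc, the dipeptidyl peptidase that activates granule proteases of immune cells, 41.5 FPKM (rank 1937), Ctso 22.0 FPKM (rank 3468) and Ctsf 8.76 FPKM (rank 6413). The aspartic protease Ctse stood last with 0.296 FPKM (rank 11329). In WT the ranges of neighbours in this order overlapped for Ctsd and Ctsb, for Ctsz and Ctsl, and for Ctsc and Ctso, and the other neighbours were separated. In VLDLR_KO Ctsh (65.0 ± 20.0 FPKM) and Ctsc (58.6 ± 20.4 FPKM) overlapped, whereas in WT Ctsh (183 ± 41.2 FPKM) lay above Ctsc (31.1 ± 8.76 FPKM) in every library.

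**Figure D1:**
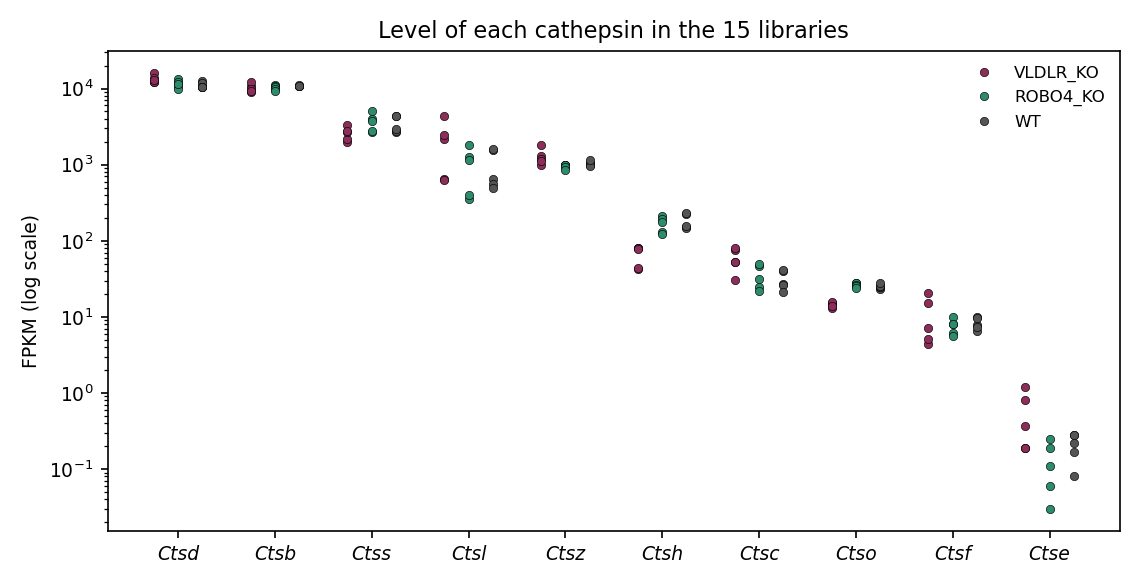
Level of each cathepsin gene in FPKM on a log scale, one point per library, with VLDLR_KO, ROBO4_KO and WT side by side (n = 5 each). Ctsd and Ctsb lie near 10481 to 12061 FPKM on average and Ctse near 0.296 FPKM, with Ctsl the most scattered of the abundant genes.

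Promoter windows of 300 bases, 250 before to 50 after the start site, were present in the RefSeq table (GRCm38.p6) for Ctsc, Ctsd, Ctsf, Ctsl, Ctso, Ctss and Ctsz. The windows of Ctso and Ctss, which were lower in VLDLR_KO, of Ctsc, which was higher, and of Ctsd, the most abundant member, are shown with matched motifs in capitals. The motifs, searched on both strands, were picked with earlier results of these data known. They were the E-box CACGTG, the same E-box flanked by GT on its left and AC on its right, a longer form bound by TFEB and its relatives, GAGGAAGT for the macrophage factor PU.1, and GAAA followed after any 2 bases by a further GAAA, for interferon regulatory factors. The windows lie at chr3:81932351-81932650 (plus strand, Ctso), chr3:95526536-95526835 (plus, Ctss), chr7:88277835-88278134 (plus, Ctsc) and chr7:142387778-142388077 (minus, Ctsd).
Ctso promoter: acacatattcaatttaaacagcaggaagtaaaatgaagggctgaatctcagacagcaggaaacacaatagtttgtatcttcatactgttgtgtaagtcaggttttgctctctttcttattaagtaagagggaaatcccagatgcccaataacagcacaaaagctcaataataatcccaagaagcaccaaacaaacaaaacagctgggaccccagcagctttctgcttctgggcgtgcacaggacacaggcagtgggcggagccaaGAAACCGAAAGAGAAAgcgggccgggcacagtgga
Ctss promoter: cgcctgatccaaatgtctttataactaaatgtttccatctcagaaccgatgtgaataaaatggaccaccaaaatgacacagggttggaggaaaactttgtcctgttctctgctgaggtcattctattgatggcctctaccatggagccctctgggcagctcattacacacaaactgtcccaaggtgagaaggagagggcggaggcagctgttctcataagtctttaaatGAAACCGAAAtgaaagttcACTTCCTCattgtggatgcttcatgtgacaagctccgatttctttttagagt
Ctsc promoter: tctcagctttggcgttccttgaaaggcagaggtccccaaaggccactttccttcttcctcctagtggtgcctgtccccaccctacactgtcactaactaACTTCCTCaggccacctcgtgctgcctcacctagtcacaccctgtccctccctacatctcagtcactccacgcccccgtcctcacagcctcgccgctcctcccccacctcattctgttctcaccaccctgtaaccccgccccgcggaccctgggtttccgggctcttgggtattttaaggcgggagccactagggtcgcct
Ctsd promoter: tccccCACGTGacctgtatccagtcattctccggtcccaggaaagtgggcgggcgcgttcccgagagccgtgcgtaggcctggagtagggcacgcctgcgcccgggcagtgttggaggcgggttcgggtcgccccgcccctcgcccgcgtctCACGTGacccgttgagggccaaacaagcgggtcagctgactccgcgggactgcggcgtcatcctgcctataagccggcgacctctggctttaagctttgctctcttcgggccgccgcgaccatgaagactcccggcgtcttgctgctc
The spaced GAAA pair occurred in the windows of Ctso, as a pair of overlapping matches 15 and 21 bases after the start, and Ctss, 21 bases before it, and in 3.44% of all 32851 windows. GAGGAAGT, which reads ACTTCCTC on the printed strand, occurred in Ctss across the start and in Ctsc 151 bases before it (3.20% of all windows). CACGTG occurred in Ctsd 245 and 98 bases before the start, in Ctsf 79 and in Ctsl 236 bases before it (7.15% of all windows). The flanked E-box (0.326% of all windows, each also a CACGTG match) had an exact match in none of the 7 windows. In Ctsd both CACGTG matches were followed by AC but not preceded by GT. The start sites used for Ctsc, Ctsd, Ctsf and Ctsl lie within the gene's range in the deposited table rather than at its end. These matches describe letters only.

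VLDLR_KO macrophages had less Ctsh, Ctso and Ctss and more Ctsc than WT. Of the 9 members that passed the filter on low counts, 3 were called lower and 1 higher (edgeR quasi-likelihood F test, adjusted p under 0.05 over 11668 genes), against 16.8% of all tested genes called, 9.03% lower and 7.74% higher. The median log2 fold change was 0.26 over the 9 members and 0.02 over all tested genes. Fewer cells of a type and less RNA per cell cannot be told apart in such bulk samples.

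Marker lists moved with the genotype. The summed fibroblast and stroma list was 2.45 to 18.97 CPM in VLDLR_KO and 38.8 to 186 CPM in WT with the digit before B, and 11.2 to 21.6 CPM in VLDLR_KO and 27.6 to 32.8 CPM in WT with the digit after B, mostly from the collagen genes Col1a1 and Col1a2. It passed the filter in 6 of 7 genes, and Lum reached at most 0.0571 CPM. The macrophage list was 27513 to 33662 CPM in VLDLR_KO and 10514 to 12392 CPM in WT (before), and 18404 to 20540 CPM in VLDLR_KO and 16224 to 16752 CPM in WT (after). Most of that sum was Lyz2, with means of 23325 CPM in VLDLR_KO and 5567 CPM in WT (before), and 14367 and 10421 CPM (after). The means of Adgre1, Itgam and Fcgr1 were lower in VLDLR_KO than in WT in both forms. Those of Csf1r, Cd68, Mertk and Cd14 were higher before and lower after, so the markers did not move as a set. Neither the fibroblast and stroma sum nor the macrophage sum overlapped between VLDLR_KO and WT in either form. The immediate-early sum was also lower in VLDLR_KO without overlap. It was 336 to 381 CPM against 525 to 548 CPM in WT (before), and 408 to 617 CPM against 1878 to 2086 CPM (after). The osteoclast sum, described below, was lower before (621 to 753 against 973 to 1173 CPM in WT) and overlapped after. The part of these lists in the cathepsin differences was not tested.

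Ctsh, the aminopeptidase (Entrez gene 13036, chr9:90054267-90076095 in GRCm38), had the largest fold change of the 9. It stood at 61.3 and 68.9 CPM (digit before B) and at 111, 122 and 111 CPM (digit after B) in VLDLR_KO. In WT it stood at 214, 212 and 226 CPM (before) and at 341 and 346 CPM (after). Every VLDLR_KO library lay below every WT library, and in both genotypes the libraries with the digit before B were the lower ones. The level was 3.15-fold lower (log2 fold change -1.66, SE 0.08, adjusted p = 4.29e-09), with -1.73 within the digit before B (adjusted p = 0.000212) and -1.58 within the digit after B (adjusted p = 8.57e-05).

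Ctso, a less studied papain-like protease (Entrez gene 229445, chr3:81932601-81956725), was the steadiest of the changed members. It had 49.2, 47.4, 46.5, 52.8 and 45.7 CPM in VLDLR_KO, against 80.2, 85.8, 78.1, 83.1 and 89.8 CPM in WT. The groups did not overlap and neither code form stood apart. The level was 1.72-fold lower (-0.78, SE 0.07, adjusted p = 2.74e-06), and the difference was -0.78 within each form (adjusted p = 0.00375 before and 0.00174 after). Ctsh and Ctso were the 2 members whose groups did not overlap, both lower, against 5.45% of all tested genes without overlap in that direction, and 0 members were higher without overlap, against 3.98%.

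Ctss, the invariant chain protease (Entrez gene 13040, chr3:95526786-95556405), had 2273 and 2757 CPM (digit before B) and 3046, 4093 and 3190 CPM (after) in VLDLR_KO. In WT it had 3057, 3149 and 3394 CPM (before) and 5277 and 5404 CPM (after). Within each form every VLDLR_KO library was below every WT library, while across forms the groups overlapped. The level was 1.41-fold lower (-0.49, SE 0.12, adjusted p = 0.0116). The call was lost without the 2 WT libraries with the digit after B (-0.41, adjusted p = 0.128), and within the forms the difference was -0.34 (adjusted p = 0.0783, before) and -0.63 (adjusted p = 0.0555, after).

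Ctsc, the dipeptidyl peptidase (Entrez gene 13032, chr7:88278023-88315864), had 228 and 193 CPM (digit before B) and 337, 218 and 324 CPM (after) in VLDLR_KO. In WT it had 119, 107 and 120 CPM (before) and 219 and 197 CPM (after). With the digit before B the groups were apart, and with the digit after B VLDLR_KO replicate 4 lay between the WT libraries. The level was 1.61-fold higher (0.69, SE 0.17, adjusted p = 0.0120), with 0.88 before (adjusted p = 0.00360) and 0.49 after (adjusted p = 0.259). The difference between forms was itself not called (0.38, SE 0.33, adjusted p = 0.440).

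**Figure D2:**
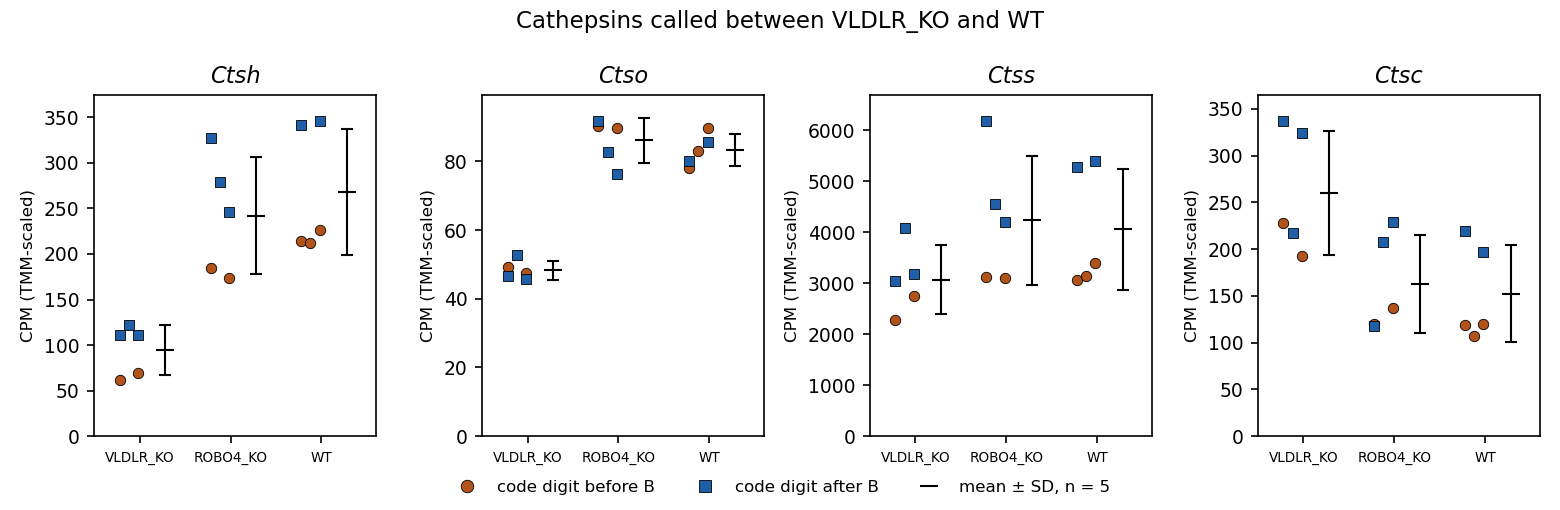
TMM-scaled CPM of Ctsh, Ctso, Ctss and Ctsc in each library by genotype, with circles for codes with the digit before B and squares for the digit after B. Bars are mean ± SD (n = 5). For Ctsh and Ctso the 5 VLDLR_KO points lie below all WT points, at 94.9 against 268 CPM and 48.3 against 83.4 CPM on average.

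The 2 most abundant members were not called. Ctsd averaged 24328 ± 4374 CPM in VLDLR_KO and 20120 ± 2247 CPM in WT (0.26, 95% interval -0.018 to 0.54, adjusted p = 0.184). VLDLR_KO replicate 2, at 31574 CPM, was the highest library, and without it the difference was 0.09 (adjusted p = 0.542). Ctsb averaged 19766 ± 2446 CPM in VLDLR_KO and 22035 ± 574 CPM in WT (-0.14, interval -0.33 to 0.057, adjusted p = 0.321).

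Ctsl, Ctsz and Ctsf were spread more widely among the VLDLR_KO libraries than among the WT libraries. Ctsl averaged 3079 ± 2375 CPM in VLDLR_KO and 1473 ± 893 CPM in WT (0.55, interval 0.092 to 1.01, adjusted p = 0.0924; DESeq2 adjusted p = 0.0470). Ctsz averaged 1663 ± 517 CPM in VLDLR_KO and 1328 ± 89.0 CPM in WT (0.34, interval 0.040 to 0.65, adjusted p = 0.111), and without VLDLR_KO replicate 2 (2538 CPM) the difference was 0.15. Ctsf averaged 19.4 ± 13.8 CPM in VLDLR_KO and 15.01 ± 2.41 CPM in WT (0.34, interval -0.24 to 0.93, adjusted p = 0.412). All 3 means were higher in VLDLR_KO, with differences that did not pass the edgeR test over both forms. Within each form every VLDLR_KO library lay above every WT library for Ctsl, while across forms the groups overlapped. With the digit before B Ctsl had 935 and 1015 CPM in VLDLR_KO and 718 to 929 CPM in WT. With the digit after B it had 3124 to 6747 CPM in VLDLR_KO and 2411 and 2485 CPM in WT.

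Ctse, the aspartic protease of endosomes, was too low to be tested with the other members. It had 29, 43, 13, 7 and 7 counts in VLDLR_KO, 2, 9, 4, 7 and 1 in ROBO4_KO and 10, 6, 3, 8 and 10 in WT. The 2 VLDLR_KO libraries with the digit before B, at 29 and 43 counts, were the highest, and the groups overlapped. A two-sided exact permutation test on log2(CPM + 0.1) gave p = 0.135 for VLDLR_KO against WT, 0.175 for ROBO4_KO against WT and 0.0317 for VLDLR_KO against ROBO4_KO (n = 5 each). These p values are unadjusted, and the test had no term for the form, which split Ctse within VLDLR_KO. In edgeR with no filter on low counts the adjusted p values were 0.114, 1 and 0.0357, with log2 fold changes of 1.39, -0.60 and 1.99.

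Within the digit before B, 6 of the 10 members were called between VLDLR_KO and WT, against 20.5% of genes tested there (10.5% lower, 10% higher). They were Ctsh and Ctso, lower, and Ctsc (0.88), Ctsf (1.07), Ctsz (0.68) and Ctse (2.47), higher. Ctse failed the filter over all 15 libraries and passed it here largely through its 29 and 43 counts in VLDLR_KO. Its place among the 6 thus depends on the group where it was high. Within the digit after B 2 of 10 were called, Ctsh and Ctso, both lower, against 15.7% of genes tested there (8.92% lower). These fits rest on 2 and 3 libraries a group.

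In ROBO4_KO macrophages no member was called against WT. The count was 0 of 9, against 0.643% of all tested genes (75 genes), and at an unadjusted p under 0.05 it was 1 of 9, Ctsh, against 715 of 11668 genes. Ctsh had 184 and 174 CPM (digit before B) and 327, 279 and 246 CPM (after) in ROBO4_KO, below the WT libraries of the same form listed above. Its log2 fold change was -0.29 (SE 0.08, adjusted p = 0.199), and DESeq2, which called 172 genes, called it and no other member (-0.28, adjusted p = 0.0404).

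Ctsl averaged 1497 ± 987 CPM in ROBO4_KO and 1473 ± 893 CPM in WT, with a form-adjusted log2 fold change of -0.44 (SE 0.21, adjusted p = 0.850). The other 7 members had log2 fold changes between -0.12 (Ctsz) and 0.06 (Ctso). Among the abundant members the 95% interval was -0.25 to 0.13 for Ctsb and -0.89 to 0.016 for Ctsl, and for Ctso it was -0.096 to 0.21.

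Between the knockouts, VLDLR_KO had less Ctsh, Ctso and Ctss and more Ctsl, Ctsc and Ctsz than ROBO4_KO. This made 6 of 9 members, 3 in each direction, against 16% of all tested genes (8.44% lower, 7.57% higher). The comparison shares its VLDLR_KO libraries with the one against WT, so it is no independent repeat. Ctsh differed by -1.37 (SE 0.08, adjusted p = 2.59e-08) and Ctso, at 90.4, 89.7, 91.9, 82.7 and 76.2 CPM in ROBO4_KO, by -0.83 (SE 0.07, adjusted p = 1.30e-06). The summed fibroblast and stroma list was 2.45 to 18.97 CPM in VLDLR_KO and 32.4 to 158 CPM in ROBO4_KO with the digit before B, and overlapped with the digit after B (11.2 to 21.6 CPM in VLDLR_KO, 8.61 to 11.7 CPM in ROBO4_KO). Its part in these differences was not tested. Ctsh and Ctso again did not overlap, against 4.88% of genes lower without overlap. No member was higher without overlap, against 3.51% of genes.

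Ctsl, the endopeptidase (Entrez gene 13039, chr13:64361052-64370748), had 935 and 1015 CPM (digit before B) and 3124, 6747 and 3574 CPM (after) in VLDLR_KO. In ROBO4_KO it had 516 and 570 CPM (before) and 2884, 1840 and 1675 CPM (after). Within each form the VLDLR_KO libraries were the higher ones, whereas across forms the groups overlapped. The log2 fold change was 0.99 (SE 0.21, adjusted p = 0.00514), with 0.85 before (adjusted p = 0.0131) and 1.07 after (adjusted p = 0.0536).

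Ctsc differed by 0.68 (SE 0.17, adjusted p = 0.0124), with 120 and 138 CPM (before) and 117, 208 and 229 CPM (after) in ROBO4_KO. Ctss differed by -0.44 (SE 0.12, adjusted p = 0.0212), and the call was lost without ROBO4_KO replicate 3 (-0.33, adjusted p = 0.0583) or VLDLR_KO replicate 5 (-0.40, adjusted p = 0.0601). Ctsz differed by 0.46 (SE 0.14, adjusted p = 0.0414). Its call was lost in 9 of the 15 fits that left out 1 library (adjusted p up to 0.104), and without VLDLR_KO replicate 2 the difference was 0.29 (adjusted p = 0.0462). Within the forms 6 of 10 members were called before (12.6% of genes) and 2 of 10 after (14.8% of genes). With the digit before B Ctss was not called, and Ctsf was called higher (1.10, adjusted p = 0.0287). With the digit after B only Ctsh and Ctso were called, both lower. The 10 include Ctse, which failed the filter over all 15 libraries.

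**Figure D3:**
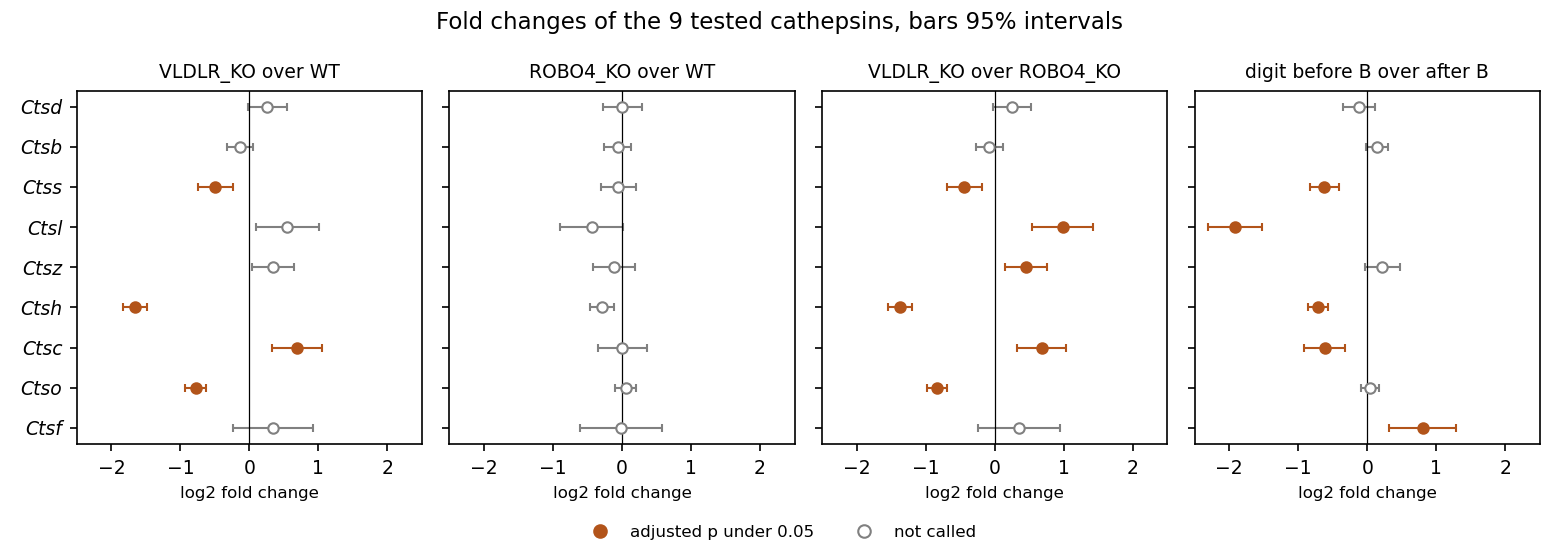
Log2 fold changes of the 9 tested cathepsins in 4 comparisons, with bars for 95% intervals and filled points for adjusted p under 0.05. Ctsh and Ctso lie below 0 in both comparisons of VLDLR_KO, no point is filled for ROBO4_KO over WT, and Ctsl reaches -1.92 for the digit before B over the digit after B.

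The 2 code forms differed in 5 of the 9 tested members, against 38.1% of all tested genes (18.8% lower and 19.3% higher with the digit before B). Ctsl, Ctsh, Ctss and Ctsc were lower with the digit before B and Ctsf was higher. Ctsl ranged from 516 to 6747 CPM, 13.1-fold, over the 15 libraries. All 7 libraries with the digit before B, at 516 to 1015 CPM, lay below all 8 with the digit after B, at 1675 to 6747 CPM, and Ctsl was the only member without overlap (6.38% of genes lower without overlap, and 0 members higher, against 5.18%). It was 3.77-fold lower with the digit before B (-1.92, SE 0.18, adjusted p = 3.01e-06).

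The osteoclast list was also lower with the digit before B within each genotype, though the forms overlapped across genotypes. Osteoclasts are bone-resorbing cells that form from the same precursors, and the summed level of the 6 listed markers was 621 to 1173 CPM with the digit before B and 1146 to 2123 CPM with the digit after B. Atp6v0d2, a subunit of the lysosomal proton pump, made up 604 to 2062 CPM of it, Calcr and Oscar were at most 0.0533 and 0.107 CPM in any library, and 3 of the 6 markers passed the filter. Mean Acp5 was 1.01, 0.629 and 1.25 CPM before and 26.9, 18.5 and 15.8 CPM after in VLDLR_KO, ROBO4_KO and WT. Mean Dcstamp was 14.7, 4.68 and 3.60 CPM before and 23.5, 19.1 and 13.7 CPM after, in the same order. With the digit before B the summed list was lower in VLDLR_KO (621 to 753 CPM) than in WT (973 to 1173 CPM). Ctsl was higher there, at 935 and 1015 CPM in VLDLR_KO and 718 to 929 CPM in WT. The part of this list in the Ctsl result was not tested.

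Ctsh differed between forms by -0.71 (SE 0.07, adjusted p = 2.40e-06), Ctss by -0.62 (SE 0.10, adjusted p = 0.000255) and Ctsc by -0.62 (SE 0.14, adjusted p = 0.00296). Ctsf, which in macrophages can also cut the invariant chain, differed by 0.80 (SE 0.23, adjusted p = 0.0128). Ctsb (0.14), Ctso (0.04), Ctsz (0.22) and Ctsd (-0.12) did not pass the test. Without VLDLR_KO replicate 2, Ctsd was called lower with the digit before B (-0.24, adjusted p = 0.0157).

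Ctsf (Entrez gene 56464, chr19:4855129-4860912) was the 1 member whose VLDLR_KO effect was called different between the forms. It had 26.9 and 40.1 CPM in VLDLR_KO, against 17.6, 13.1 and 17.3 CPM in WT, with the digit before B. With the digit after B it had 7.72, 13.3 and 9.11 CPM in VLDLR_KO, against 14.7 and 12.3 CPM in WT. VLDLR_KO was thus above WT in the first form (1.07, adjusted p = 0.0156), and in the second its median library was below WT (-0.43, adjusted p = 0.276). The effects differed by 1.50 (SE 0.36, adjusted p = 0.0172), 1 of 9 members against 15.2% of all tested genes. The call was lost without VLDLR_KO replicate 2 (1.17, adjusted p = 0.0665) or WT replicate 1 (1.36, adjusted p = 0.0757). At an unadjusted p under 0.05 the VLDLR_KO effects of Ctsz (0.63) and Ctsd (0.49) also differed between forms, as for 4026 of 11668 genes. No member had a ROBO4_KO effect that was called different between forms (0 of 9, 0 at an unadjusted p under 0.05, against 0.403% of genes called).

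**Figure D4:**
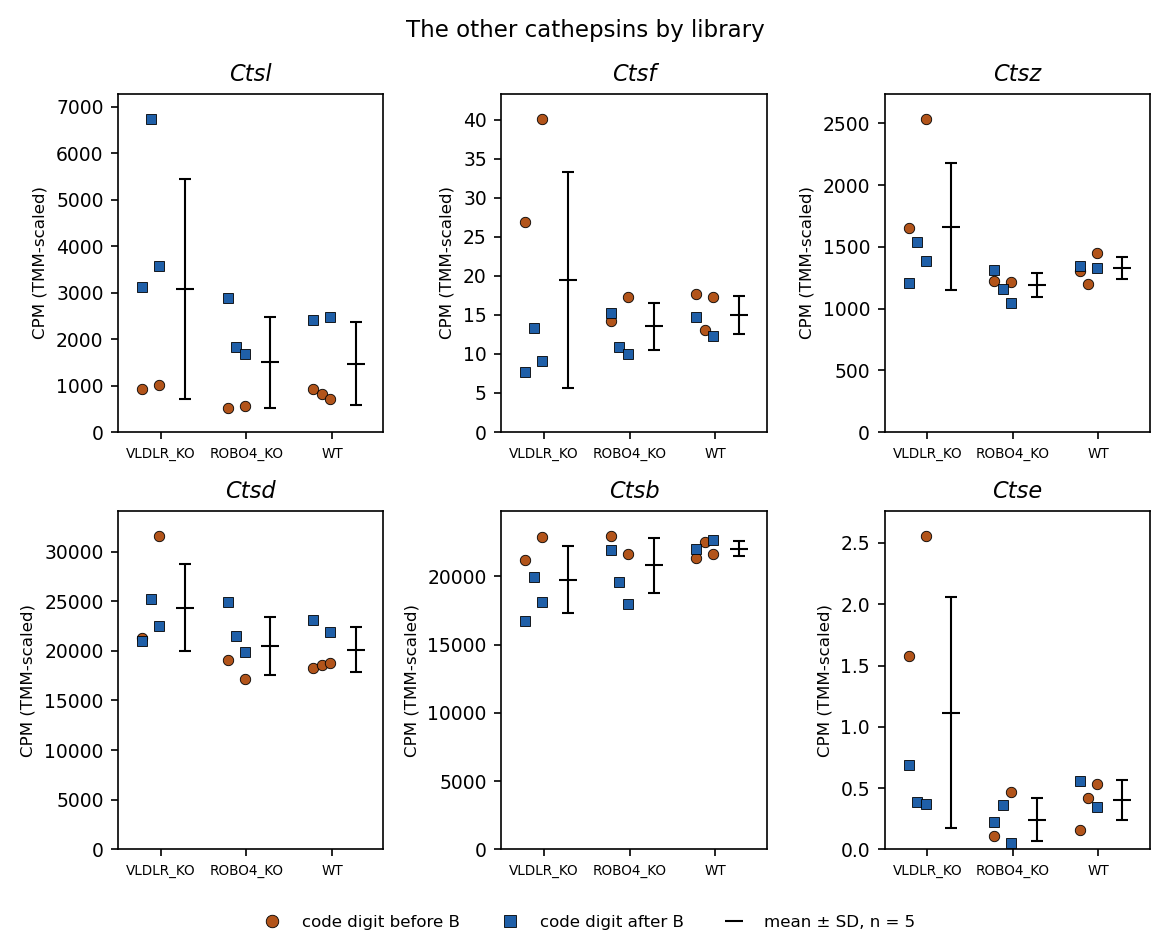
TMM-scaled CPM of Ctsl, Ctsf, Ctsz, Ctsd, Ctsb and Ctse in each library by genotype, with circles for the digit before B, squares for the digit after B, and bars for mean ± SD (n = 5). Ctsl splits by form within every genotype, and VLDLR_KO replicate 2 is the highest point for Ctsf (40.1 CPM), Ctsz (2538 CPM) and Ctsd (31574 CPM).

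The transcript table showed which RefSeq transcripts carried these changes. Of 16 member transcripts tested, 5 were called between VLDLR_KO and WT, against 3.33% of 30096 transcripts (2.11% lower, 1.21% higher). They were NM_007801.3 of Ctsh (-1.65, adjusted p = 8.85e-08), NM_177662.3 of Ctso (-0.79, adjusted p = 1.99e-05), NM_021281.3 (-0.51, adjusted p = 0.0235) and NM_001267695.2 (-0.50, adjusted p = 0.0477) of Ctss, and NM_009982.5 of Ctsc (0.69, adjusted p = 0.0426). Between the knockouts 4 were called (3.27% of transcripts), between the forms 7, all lower with the digit before B (9.13% of transcripts in either direction, 4.85% lower), and between ROBO4_KO and WT 0 (0.11% of transcripts, and 1164 of 30096 at an unadjusted p under 0.05).

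Nearly all Ctsl counts (98.4 to 99.2%) were given to the predicted transcript XM_006517080.1, and 0.814 to 1.64% to the curated NM_009984.4. The minor Ctsh transcript NM_001312649.1 had 0 to 20.0 counts in VLDLR_KO, 32.5 to 82.1 in ROBO4_KO and 55.3 to 97.5 in WT, a difference that was not called against WT (adjusted p = 0.113). Ctsb counts were shared between NM_007798.3 and XM_017315833.1, and NM_007798.3 took 46.7 to 51.8% of them in 14 libraries and 32.6% in VLDLR_KO replicate 2. Counts were estimates, and transcripts of one gene share most of their reads.

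Genes around the cathepsins were taken from lists chosen with earlier results known. Of the 4 other cathepsins listed, Ctsg and Ctsw had at most 2 counts per library, and neither Ctsa nor Ctsk was called between genotypes over both forms by edgeR or DESeq2 (0 at an unadjusted p under 0.05). Within the digit before B, Ctsa was called higher in VLDLR_KO than in WT (0.52, adjusted p = 0.0414). Ctsk, the collagen-cutting protease of osteoclasts, averaged 10.8 ± 4.33 CPM with the digit before B (n = 7) and 68.5 ± 45.7 CPM with the digit after B (n = 8; -2.67, SE 0.43, adjusted p = 0.000258). Ctsa, the carboxypeptidase called protective protein, was higher with the digit before B (0.39, adjusted p = 0.0110).

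A minor transcript of Ctsa was lower in VLDLR_KO than in the other groups. NM_001038492.2 had 20.1 to 65.0 counts in VLDLR_KO, 1440 to 1913 in ROBO4_KO and 1221 to 2211 in WT (-5.39 against WT, SE 0.34, adjusted p = 7.26e-07). It took 0.0469 to 0.245% of Ctsa counts in VLDLR_KO, 6.11 to 7.25% in ROBO4_KO and 4.86 to 7.42% in WT. The main transcript NM_008906.4 was not called (0.28, adjusted p = 0.348).

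Of 16 listed cathepsin inhibitors 12 were in the table and 9 were tested, and 3 were lower and 1 higher in VLDLR_KO than in WT (median -0.0072 on the log2 scale, against 0.02 over all tested genes, of which 9.03% were lower and 7.74% higher). Serpinb6b, an intracellular serpin, had 9.49 ± 2.62 CPM in VLDLR_KO and 69.7 ± 45.1 CPM in WT (-2.31, SE 0.26, adjusted p = 2.44e-05), and Serpina3g (-2.92) and Serpinb6a (-0.38) were also lower. Ctla2b, an inhibitor that resembles a cathepsin propeptide, was higher (1.26, adjusted p = 0.00231), but its close copy Ctla2a makes its counts uncertain. The cystatin Cst3 averaged 825 ± 379 CPM in VLDLR_KO and 699 ± 64.2 CPM in WT and was not called. Between forms 6 of the 9 were higher and 0 lower with the digit before B, against 19.3% and 18.8% of all tested genes, led by the cystatin Cst7 (2.96, adjusted p = 1.67e-05), at 5.52 ± 2.27 CPM before and 0.685 ± 0.362 CPM after.

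Of 18 sorting and processing genes, 2 were higher in VLDLR_KO than in WT, the adaptors Gga3 (0.49, adjusted p = 0.00133) and Gga2 (0.19, adjusted p = 0.0323), and 1 lower, Lgmn (-0.34, adjusted p = 0.0145), the endopeptidase legumain that cleaves several cathepsins into their 2-chain forms. The 3 of 18 called stand near the 16.8% of all tested genes called, and the median over the 18 was -0.10. DESeq2 called 5 of the 18, adding Nagpa and Scarb2. At an unadjusted p under 0.05 in edgeR there were 7 of the 18, against 3741 of 11668 genes. Between forms 4 were higher and 5 lower with the digit before B, where 38.1% of all tested genes were called, among them the sorting receptor Sort1 (-1.35, adjusted p = 6.93e-07) and Lgmn (-0.80, adjusted p = 1.87e-06). Of 11 partners and substrates, Cd74, the invariant chain itself, was the 1 called against WT by edgeR (-0.71, SE 0.18, adjusted p = 0.0159). There 16.8% of all tested genes were called. Cd74 stood at 104 ± 37.5 CPM in VLDLR_KO and 159 ± 87.2 CPM in WT, and the median over the 11 was -0.02. DESeq2 called Lamp2 as well as Cd74. Between forms Cd74 (-0.94) and the thiol reductase Ifi30 (-1.96, adjusted p = 1.59e-06) were lower and Tlr9 (1.32) higher with the digit before B.

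Of 11 genes for MiT/TFE factors, which switch on lysosomal genes, and their regulators, 0 were called between VLDLR_KO and WT over both forms by edgeR or DESeq2 (0 at an unadjusted p under 0.05, median log2 fold change -0.055 against 0.02 over all tested genes). Of all tested genes edgeR called 16.8% there, and 3741 of 11668 had an unadjusted p under 0.05. Within the digit before B Tfeb (0.92, adjusted p = 0.0158) and Flcn (0.45, adjusted p = 0.0207) were higher in VLDLR_KO than in WT, and within the digit after B Flcn was lower (-0.55, adjusted p = 0.00327). Between forms Rragd (0.93), Rragc (0.71), Flcn (0.61) and Mcoln1 (0.18) were higher and Mitf (-0.81, adjusted p = 0.000506) lower with the digit before B. Tfeb (1.15), Tfe3 (0.43) and Flcn (0.99) had a VLDLR_KO effect that differed between forms, as did the partners Psap (0.83), Grn (0.63) and Unc93b1 (1.002), all more positive with the digit before B. These were 3 of 11 genes in each list, against 15.2% of all tested genes. Leaving out 1 library moved the count over all genes to between 598 and 5090. Against WT, ROBO4_KO had 0 calls in each of these lists by edgeR and by DESeq2, and at an unadjusted p under 0.05 it had 1 sorting gene, 1 partner and 1 MiT/TFE gene. Of all tested genes edgeR called 0.643% there, and 715 of 11668 had an unadjusted p under 0.05. With so few genes called, 0 calls in a short list say little about that list.

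The genes whose log2 CPM followed each member most closely over the 15 libraries were found among all tested genes outside the members. They were Clec7a (Pearson r = 0.986) and Snx5 (0.983) for Ctsh, Pnrc2 (0.985) and Asah1 (0.983) for Ctso, Prcp (0.963) and Hadha (0.957) for Ctss, and P2ry12 (0.941) and Wdr62 (0.940) for Ctsc. For Ctsl they were Lat (0.989) and Aldh1b1 (0.982), for Ctsz Glmp (0.981) and Spns1 (0.969), and for Ctsf Phf1 (0.986) and Lrp10 (0.971). For Ctsb they were Tnfaip2 (0.949) and Wdr91 (0.948), and for Ctsd Capns1 (0.940) and Emp3 (0.928). All points share the same libraries, genotypes and forms, so the values only describe likeness.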

How the data were processed

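Per the labels' protocols, total RNA was extracted with TRIzol, prepared with a SMARTER mRNA-Seq kit and sequenced as paired ends on a BGISEQ-500. The submitters' processing notes name HISAT, Bowtie2 and the build GRCm38.p6. For the quantifier, the annotation and the use of strand the sources used here give nothing.

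Both deposited tables, of genes and of transcripts, give the authors' read count per library with no normalization, per the file headers. The authors' deposited values are estimated counts, since 92.6% of gene values were whole (tolerance 0.001), and they were rounded here. The authors' second set of columns was read as FPKM: the headers give no unit, but in 420 one-transcript genes with over 500 counts the ratio of count to value and library total had a median coefficient of variation of 0.551%. The authors' group averages and fold changes were not used, since the labels do not map them to groups. Replicates of 1 genotype and form differed by a chi-square per degree of freedom of 5.71 to 88.5, so no library was counted as a duplicate.

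Analysis used R 4.3.3 with edgeR 4.0.16 (filterByExpr by genotype, 11668 genes and 30096 transcripts kept, TMM scaling, quasi-likelihood F tests, two-sided). The model held genotype and code form over all 15 libraries, or their product for differences between forms. A call is a Benjamini-Hochberg adjusted p under 0.05 over all tested genes. SE is the size of the log2 fold change divided by the square root of F, and 95% intervals use the t quantile at the test's total degrees of freedom. CPM uses TMM-scaled totals. The members, lists, motifs and model were chosen with earlier results of these data known. All 10 members are named. Of other lists, called genes were named, at most 8 per list by smallest adjusted p, and counts cover the whole list. The 2 genes nearest to each member are given by Pearson r. Alternatives were DESeq2 1.42.0, limma 3.58.1 on log2(FPKM + 1) and log2(FPKM + 0.1), another scaling, no filter, no form term, fits within a form, a block for the code digit, and each library left out. The test was checked on simulated data in which the form shifted each gene equally in every genotype. That check thus does not cover genotype effects that differ between forms. Counts carry no molecular identifiers, so counting error understates the spread.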

Additional observations from a re-analysis of the deposited data

Results flagged for a closer look

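Ctsf drew attention because its VLDLR_KO effect differed between the code forms. The effect with the digit before B exceeded that with the digit after B by 1.50 on the log2 scale (SE 0.36, edgeR interaction test, adjusted p = 0.0172), with 1.07 in the first form and -0.43 in the second. In the first form both VLDLR_KO libraries (26.9 and 40.1 CPM) lay above the 3 WT libraries, and in the second 2 of 3 VLDLR_KO libraries lay below both WT libraries. No library was flagged in the 30 tests of single libraries within a genotype, of which chance flags about 1 in 20. These tests pooled both forms, so differences between forms widen the range and can hide a library that stands apart.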

How the results depend on the processing

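Of 1215 single-gene results under alternatives, 1121 kept direction and side of the threshold, 34 lost and 8 gained a call, and 52 changed sign. Between VLDLR_KO and WT, Ctsh and Ctso kept their calls in all 26 alternatives. Without the form term 1086 genes and 2 members were called there, and within the digit after B 2 members. For ROBO4_KO against WT DESeq2 called 172 genes and 1 member, and edgeR called 44 genes without the 2 WT libraries with the digit after B, 39 with no form term, 20 within the digit before B, 188 within the digit after B and 55 to 125 when 1 library was left out. Between the knockouts 888 genes and 2 members were called with no form term and 2 members within the digit after B. Leaving out 1 library moved the interaction count for VLDLR_KO to between 598 and 5090 genes and 0 to 3 members. Leaving out WT replicates 1 and 2 together was not possible for the interactions. The cause of these shifts was not tested.

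All sign changes fell on results that were not called on either side. Between VLDLR_KO and WT they were Ctsb within the digit before B (0.023) and Ctsf within the digit after B (-0.43), and between the knockouts Ctsf within the digit after B (-0.26). In the VLDLR_KO interaction Ctso ranged from -0.059 to 0.057 over the fits that left out 1 library. Against WT in ROBO4_KO such fits spanned -0.070 to 0.13 for Ctsc, -0.058 to 0.059 for Ctsd and -0.16 to 0.16 for Ctsf, and in its interaction -0.077 to 0.091 for Ctsd, -0.0087 to 0.34 for Ctsf, -0.097 to 0.11 for Ctsh and -0.047 to 0.25 for Ctss. Further ROBO4_KO sign changes against WT came without the 2 WT libraries with the digit after B (Ctsb 0.065, Ctsf 0.43, Ctss 0.034, Ctsz 0.065), with no form term (Ctsl 0.023, Ctss 0.062), within the digit before B (Ctsb 0.032, Ctsd -0.030), within the digit after B (Ctsc -0.17, Ctsd -0.029) and on FPKM with limma (Ctsf 0.015 with a pseudocount of 1, with and without a filter, and 0.013 with a pseudocount of 0.1).

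Deviations of same-digit libraries from genotype and form correlated at -0.593 to 0.161, against -0.534 to 0.487 for different digits of the same form. No pairing by digit was thus seen. Such deviations sum to 0 over each genotype and over each form, and genotype effects that differ between forms stay in them. These ranges therefore check it only weakly. With the digit as a replicate block, 1141 genes were called between the knockouts, where Ctsc (adjusted p = 0.0545) and Ctsz (0.145) lost their calls, and Ctsf changed sign in ROBO4_KO against WT (0.049). It changed no other member's call.

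Other lost calls were Ctsc against WT with no form term (adjusted p = 0.0747) or on unfiltered FPKM (0.0520), Ctss against WT with no form term (0.308), and, between the knockouts, Ctsc on unfiltered FPKM (0.0544) and within the digit after B (0.114), Ctsz without the 2 WT libraries with the digit after B (0.0547) and within that form (0.212), Ctss within the forms (0.136 before, 0.0717 after), and with no form term Ctsc (0.127), Ctsl (0.326), Ctss (0.246) and Ctsz (0.0839), and Ctsh between forms with no genotype term (0.251). Without VLDLR_KO replicate 1 the interactions of Ctsd (0.75, adjusted p = 0.00570) and Ctsz (0.91, adjusted p = 0.00309) were called. Depth limits Ctse, with 1 to 43 counts per library.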
